A study of Homo sapiens with 6 samples.

Results

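Transcripts of 51 human DNA repair genes were examined in REH cells given the small molecule ML141. They were the 51 entries, of 26485 in the deposited gene table, whose symbols stand in a given list of genes for the Fanconi anemia pathway, homologous recombination, DNA end resection, damage checkpoints, mismatch repair, base excision repair and end joining. All 51 were found, and all 51 passed the filter on low counts. The rule itself uses no measured value. REH is an established cell line grown from a B-precursor acute lymphoblastic leukemia, and it carries the ETV6-RUNX1 fusion. ML141 inhibits CDC42, a small GTPase that organizes the actin cytoskeleton and cell polarity. In the DMSO group, cells received the solvent for 24 h, and in the ML141 group they received 25 µM ML141 for 24 h. Each group had 3 libraries, described by the submitters as 3 independent experiments, and the names of the libraries tie each DMSO library to the ML141 library of the same number. All 6 libraries came from 1 cell line at 1 dose and 1 time, and they measured RNA, not protein or repair activity.

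The pathways divide the work by type of damage. Crosslinks between DNA strands are recognized by the Fanconi core complex, a ubiquitin ligase that marks the FANCD2 and FANCI pair. Breaks across both strands are either trimmed back by nucleases and copied from the sister chromatid, which is homologous recombination, or held by the Ku proteins and rejoined directly, which is end joining. Mismatch repair removes copying errors behind the replication fork, and base excision repair removes damaged or misplaced bases. The kinases ATM and ATR signal breaks and stalled forks to CHEK2 and CHEK1. Lymphoid precursors also use end joining to complete the recombination of their antigen receptor genes. Because recombination needs a sister chromatid, many of its genes are transcribed mainly while cells copy their DNA.

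Total counts ran from 8284299 to 12308039 per library, and 1 count stood for 0.0754 to 0.130 CPM, the unit used below, which is a library's counts scaled to a common size with TMM factors. The members' mean DMSO levels ran from 13.6 to 1474 CPM, with a median of 81.4 CPM. Log2 changes are fitted log2 fold changes of ML141 over DMSO from edgeR's quasi-likelihood test, and a gene is said to have risen or fallen where its p-value, adjusted over all 11454 genes tested, was under 0.05. Of 15 B-precursor markers of the labelled cell type, 14 passed the filter on low counts. VPREB1 had only 1 count, in ML141 replicate 3. The summed level of the 15 was 8018 to 8807 CPM with DMSO and 10055 to 10353 CPM with ML141. Within that sum the markers did not all move alike, with CD24 lower and CD79A higher with ML141. Of 7 T cell markers 3 had a count, and their sum stayed between 0.28 and 0.77 CPM in all libraries, with CD3D, CD3G, CD2 and CD5 at 0. Myeloid markers, 6 of 7 with a count and ELANE at 0, summed to 49.1 to 50.1 CPM with DMSO and 32.8 to 36.2 CPM with ML141. MPO, CSF1R and ITGAM among them passed the filter on low counts too. Most of the sum was MPO, at 41.4 ± 0.36 CPM with DMSO and 26.2 ± 1.38 CPM with ML141 (mean ± SD, 3 libraries). Its log2 change was -0.66 ± 0.10 (SE, adjusted p by edgeR = 1.83e-04). Of 6 erythroid markers 3 had a count, with a sum of at most 0.41 CPM and with HBB, HBA1 and HBA2 at 0. The part of these shifts in the results was not tested.

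Most of the repair genes were lower with ML141. Of the 51 genes 39 fell, 2 rose and 10 did not pass the test, beside 27.7% of all genes tested that fell, 26.7% that rose and 54.4% that did either. A fall of more than 2-fold was seen in 21 members, beside 6.24% of all genes. Over all 51 the median log2 change was -0.81, against 0.02 for all genes tested. The 2 that rose were ATM, the kinase that signals DNA breaks, and FANCF, an adaptor subunit of the Fanconi core complex. All ML141 libraries were under all DMSO libraries in 41 members and above them in 5, beside 30.7% and 30.5% of all genes. By the adjusted p of the authors' deposited table, 39 members were lower and 2 higher as well, and all 51 had the same direction there as in edgeR. In RNA pooled from a whole culture, fewer cells with a transcript and less of it per cell cannot be told apart.

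**Figure D1:**
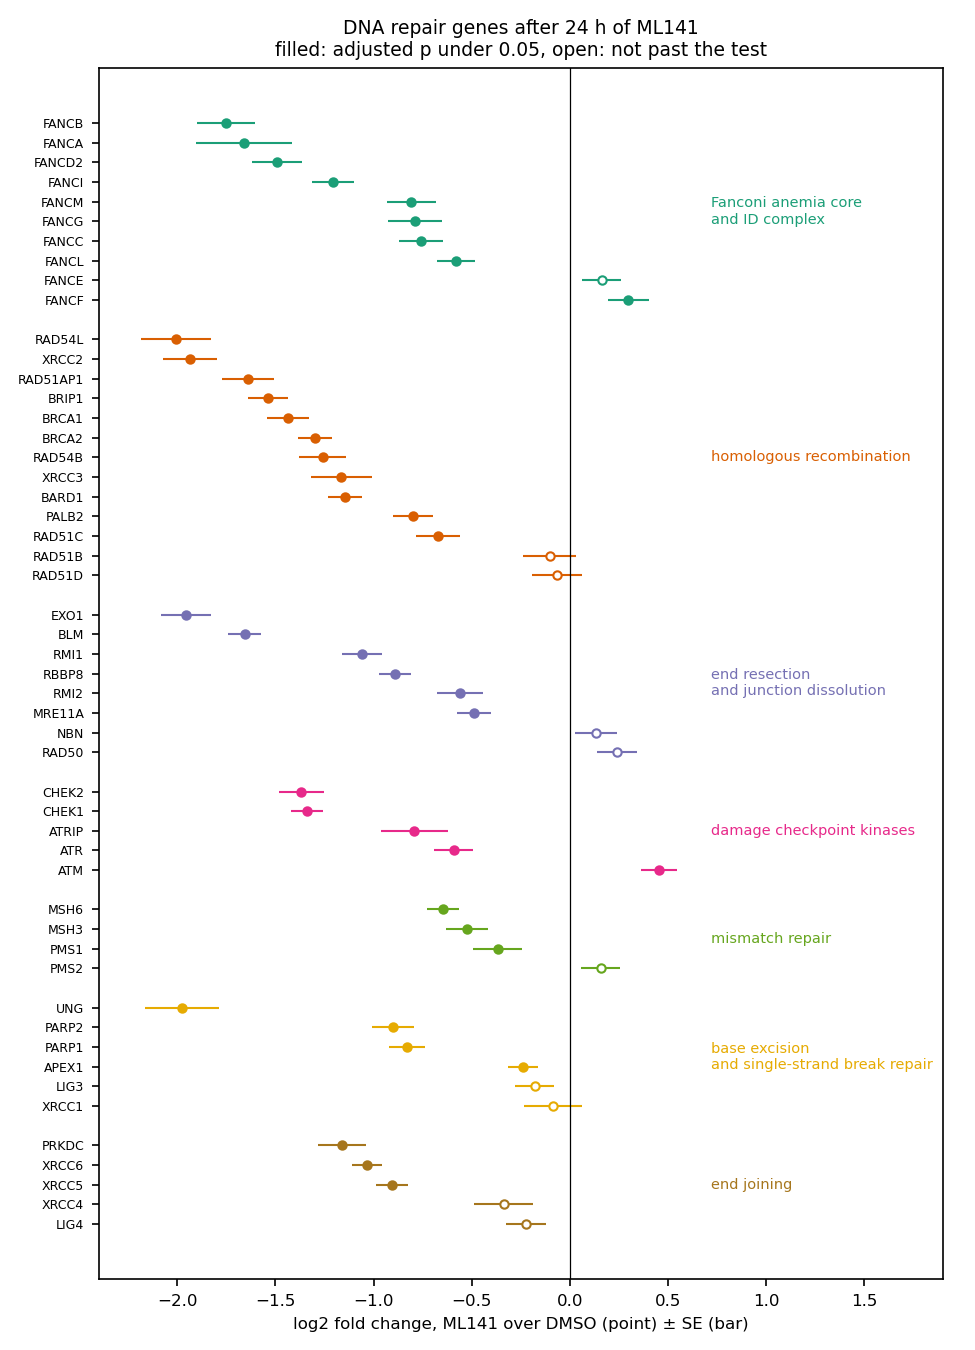
Log2 fold change of each of the 51 repair genes, ML141 over DMSO (x axis), with its standard error as a bar, grouped by pathway on the y axis. Filled points passed the edgeR test and open points did not. Points lie left of 0 for 45 genes, and ATM and FANCF are the 2 filled points to its right.

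Genes of cell division were lower in the same libraries, and their part in the repair genes' fall was not tested. All 34 listed genes of DNA replication fell, with a median log2 change of -1.59, and 24 of 26 genes of mitosis fell, with a median of -0.90. Averaged over genes as log2 CPM relative to the DMSO mean, the repair list stood at -0.93, -0.83 and -0.78 in ML141 replicates 1, 2 and 3. On the same scale, DNA replication stood at -2.05, -1.53 and -1.50. Mitosis stood at -0.95, -1.14 and -0.63, with replicate 2 the lowest. ML141 replicate 1 was thus the lowest of the 3 in the repair and replication lists but not in mitosis. It held the lowest ML141 value of 22 of the 39 repair genes that fell, against 12 for replicate 2 and 5 for replicate 3.

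**Figure D2:**
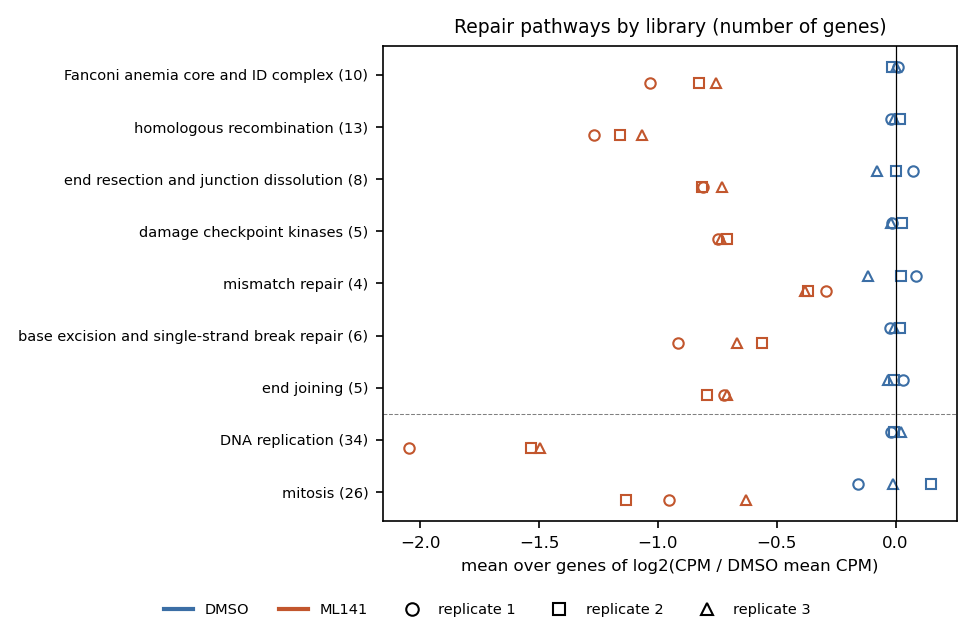
Mean over the genes of each list of log2 CPM relative to the DMSO mean (x axis), for 7 repair pathways and, under the dashed line, for DNA replication and mitosis (y axis, number of genes in parentheses). Each symbol is 1 library, blue for DMSO and orange for ML141. Homologous recombination had the lowest ML141 values of the repair pathways, -1.27, -1.16 and -1.07, and mismatch repair the highest, -0.29, -0.37 and -0.38.

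Promoter sequences were read from RefSeq (GRCh38.p14) for 45 of the 51 members, as windows from 250 bases before to 50 after a transcript start. FANCI, RAD54B, NBN, RMI2, PRKDC and XRCC5 were not analysed here for promoter words. Words searched on both strands were the E2F words TTCCCGC, also TTCGCGC, also TTGCCGC and TTGGCGC, the words TTTGAA and TTCGAA of the cell cycle homology region, and CCAAT, the last of which can share bases with an E2F word. E2F factors are known for driving genes of S phase entry, CCAAT is bound by NF-Y, and the cell cycle homology region is bound by the MuvB complex. Of the 45 members 27, or 60%, held an E2F word, against 25.3% of the 9118 tested genes with a window and 24 of 29 replication genes (82.8%). CCAAT was found in 25 members (55.6%, against 44.0%) and a cell cycle homology word in 6 (13.3%, against 15.5%). None of the 5 checkpoint genes held an E2F word in these windows, while all 4 mismatch repair genes did. Among members with an E2F word 22 of 27 fell, with a median log2 change of -1.03, and among those without one 12 of 18 fell, with a median of -0.63. By pathway the median was lower with the word in homologous recombination, end resection, base excision repair and end joining. The Fanconi list went the other way, with a median of -0.76 with the word (5 of 7 fell) and -1.28 without it (2 of 2 fell). Of the 5 checkpoint genes, all without the word, 4 fell, and of the 4 mismatch repair genes, all with it, 3 fell. Over all tested genes with a window, 38.0% of those with an E2F word fell and 25.1% of those without. Replication genes fell alike, 24 of 24 with an E2F word (median -1.56) and 5 of 5 without one (median -1.61). These are matches of letters, not measured binding.

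Sequence is shown from 150 bases before to 30 after the start. It is given for the 4 fallen members with the smallest p (BLM, CHEK1, EXO1 and BRIP1) and for the 2 that rose (ATM and FANCF). The 4 were chosen by p, not by size of change. The windows are chr15:90717196-90717375 on the + strand for BLM, chr11:125626079-125626258 on the + strand for CHEK1, chr1:241848054-241848233 on the + strand for EXO1, chr17:61863499-61863678 on the - strand for BRIP1, chr11:108222917-108223096 on the + strand for ATM and chr11:22625794-22625973 on the - strand for FANCF. Of a gene with several windows, the one with the most E2F words in the stretch printed is shown. Each is written 5′ to 3′ along its gene, and capitals mark the E2F and CCAAT words on either strand.
BLM: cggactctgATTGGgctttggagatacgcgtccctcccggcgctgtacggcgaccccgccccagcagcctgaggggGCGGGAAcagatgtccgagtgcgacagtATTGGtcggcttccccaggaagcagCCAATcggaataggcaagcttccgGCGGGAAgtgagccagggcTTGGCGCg
CHEK1: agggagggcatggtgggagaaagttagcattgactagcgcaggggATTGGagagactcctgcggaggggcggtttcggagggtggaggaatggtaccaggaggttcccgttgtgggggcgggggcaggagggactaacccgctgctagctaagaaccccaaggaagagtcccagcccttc
EXO1: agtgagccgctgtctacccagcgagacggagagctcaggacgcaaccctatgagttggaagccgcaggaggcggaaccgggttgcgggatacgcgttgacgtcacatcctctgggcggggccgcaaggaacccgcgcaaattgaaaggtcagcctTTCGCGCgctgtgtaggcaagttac
BRIP1: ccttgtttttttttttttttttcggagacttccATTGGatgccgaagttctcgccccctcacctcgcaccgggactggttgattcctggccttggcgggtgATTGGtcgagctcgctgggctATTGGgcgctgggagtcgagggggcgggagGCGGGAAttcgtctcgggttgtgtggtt
ATM: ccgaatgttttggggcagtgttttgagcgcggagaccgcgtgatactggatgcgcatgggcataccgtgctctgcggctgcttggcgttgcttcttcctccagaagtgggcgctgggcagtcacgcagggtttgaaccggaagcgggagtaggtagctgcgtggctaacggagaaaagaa
FANCF: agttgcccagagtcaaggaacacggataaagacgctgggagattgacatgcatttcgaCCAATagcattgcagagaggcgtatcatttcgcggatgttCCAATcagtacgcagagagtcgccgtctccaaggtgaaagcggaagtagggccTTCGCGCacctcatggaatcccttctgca
In these stretches BLM held 3 E2F and 3 CCAAT words, BRIP1 held 1 and 3, and EXO1 held 1 E2F word and no CCAAT. CHEK1 held 1 CCAAT and no E2F word. ATM held neither, but its stretch held 1 cell cycle homology word, TTTGAA, which the capitals do not mark. FANCF, which rose, held 1 E2F and 2 CCAAT words. Over all windows of a gene at full length, the most CCAAT words in 1 window were 2 for ATM and 3 for CHEK1.

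In the Fanconi anemia pathway 8 of 10 genes fell, 1 rose and 1 did not pass the test, with a median log2 change of -0.80. FANCD2 and FANCI form the clamp that the core complex marks with ubiquitin. FANCD2 (chromosome 3, 10026414 to 10101930, hg38) stood at 199, 225 and 215 CPM in DMSO replicates 1, 2 and 3 and at 59.8, 77.9 and 89.6 CPM in ML141 replicates 1, 2 and 3, a log2 change of -1.49 ± 0.13 (SE, adjusted p by edgeR = 2.08e-06). FANCI (chromosome 15, 89243949 to 89317261) stood at 289, 287 and 279 CPM and 104, 122 and 144 CPM in the same order, a change of -1.21 ± 0.11 (SE, adjusted p by edgeR = 3.11e-06). Every ML141 library was below every DMSO library for both, and ML141 replicate 1 was the lowest. Of FANCI's exon bases 8.33% are also annotated to POLG on the opposite strand, which matters because the kit leaves strands unmarked.

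Within the core complex the changes ran from -1.75 to 0.30. FANCB, which joins the ligase subunit in a catalytic module, went from 24.4, 20.7 and 19.8 CPM with DMSO to 6.58, 6.49 and 6.10 CPM with ML141, a log2 change of -1.75 ± 0.15 (SE, adjusted p by edgeR = 1.93e-06). The 3 ML141 values were close to each other and far under those of DMSO. FANCA, a large subunit that with FANCG helps place the complex in the nucleus, fell from 78.0 ± 3.34 to 24.5 ± 10.7 CPM (mean ± SD, 3 libraries), a log2 change of -1.66 ± 0.24 (SE, adjusted p by edgeR = 1.34e-04). Its ML141 values of 12.4, 32.7 and 28.4 CPM spread more than those of FANCB, and 22.4% of its exon bases overlap ZNF276 on the other strand. FANCG fell by 0.79, FANCC by 0.76 and FANCM, the helicase-like anchor on DNA, by 0.81 on the log2 scale. FANCL, the ubiquitin ligase subunit itself, fell by 0.58, and 26.6% of its exon bases overlap VRK2 on the opposite strand.

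FANCE and FANCF, which bridge the core complex to FANCD2, were the 2 subunits that did not fall. FANCF (chromosome 11, 22622890 to 22625841) had 55.5, 47.5 and 49.2 CPM with DMSO and 67.0, 56.9 and 63.1 CPM with ML141, a log2 change of 0.30 ± 0.10 (SE, adjusted p by edgeR = 0.0273). Its groups were 1.45 CPM apart, between DMSO replicate 1 and ML141 replicate 2. The call was lost without DMSO replicate 2 (edgeR adjusted p = 0.133), DMSO replicate 3 (edgeR adjusted p = 0.0985), ML141 replicate 1 (edgeR adjusted p = 0.0515) or ML141 replicate 3 (edgeR adjusted p = 0.0842), and without replicate 2 (edgeR adjusted p = 0.0624) or replicate 3 (edgeR adjusted p = 0.212) of both groups. With library totals its change was 0.47. FANCE had a log2 change of 0.16 ± 0.10 (SE, adjusted p by edgeR = 0.191) and did not pass the test, with 32.5, 29.6 and 31.7 CPM and 35.1, 35.7 and 34.2 CPM. When libraries were scaled by upper quartiles or by totals instead of TMM it passed upward, with edgeR adjusted p = 0.0415 and edgeR adjusted p = 0.0132.

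Homologous recombination had the largest share of falling genes among the 7 pathways, 11 of 13, with none that rose and a median log2 change of -1.26. BRCA2, the loader of the recombinase onto resected DNA (chromosome 13, 32315474 to 32400266), had 152, 152 and 142.01 CPM with DMSO and 62.4, 55.5 and 63.6 CPM with ML141. Its log2 change was -1.30 ± 0.09 (SE, adjusted p by edgeR = 4.25e-07). BRIP1, a helicase that binds BRCA1 (chromosome 17, 61681266 to 61863521), had 126, 106 and 109 CPM and 36.2, 39.2 and 42.0 CPM, a change of -1.54 ± 0.10 (SE, adjusted p by edgeR = 3.88e-07). In both genes the ML141 libraries lay close together and under every DMSO library. BRCA1 fell by 1.44 and its partner BARD1, with which it forms a ubiquitin ligase, by 1.14. PALB2, the bridge between BRCA1 and BRCA2, fell by 0.80.

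The 5 paralogs of the recombinase work in a pair of complexes, and their genes did not change alike. XRCC2 (chromosome 7, 152644779 to 152676165) stood at 77.1, 79.5 and 81.5 CPM with DMSO and at 15.8, 22.7 and 23.6 CPM with ML141, a log2 change of -1.93 ± 0.14 (SE, adjusted p by edgeR = 5.61e-07). XRCC3 fell by 1.16, with 45.3% of its exon bases shared with KLC1 on the opposite strand, and RAD51C, a subunit of both complexes, fell by 0.67. RAD51B and RAD51D, which share a complex with RAD51C and XRCC2, did not pass the test. RAD51B had 12.8, 14.8 and 13.0 CPM and 12.8, 12.7 and 12.4 CPM (edgeR adjusted p = 0.543). Its partner RAD51D had 27.7, 30.5 and 26.8 CPM and 23.9, 31.3 and 26.0 CPM (edgeR adjusted p = 0.691). Their small changes of -0.10 and -0.06 turned positive with library totals (0.071 and 0.11), and that of RAD51D also with upper-quartile factors (0.041).

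Genes acting with the recombinase on DNA fell strongly. RAD54L, a motor that moves it along DNA, went from 98.5 ± 9.45 to 24.4 ± 7.33 CPM (mean ± SD, 3 libraries), a log2 change of -2.01 ± 0.18 (SE, adjusted p by edgeR = 3.05e-06) and the largest fitted fall in the list. In ML141 it stood at 16.4, 30.8 and 26.0 CPM, with replicate 1 well under the others, and 18.0% of its exon bases overlap LRRC41 on the opposite strand. Its relative RAD54B fell by 1.26, and 63.3% of the exon bases of RAD54B also belong to FSBP on the same strand. RAD51AP1, which stimulates strand pairing, fell by 1.64.

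Of the 8 genes for end resection and junction dissolution 6 fell, none rose and 2 did not pass, with a median log2 change of -0.72. BLM, the helicase mutated in Bloom syndrome (chromosome 15, 90717327 to 90816165), had the smallest p of all members. It stood at 179, 184 and 171 CPM with DMSO and at 57.2, 52.9 and 59.2 CPM with ML141, a log2 change of -1.66 ± 0.08 (SE, adjusted p by edgeR = 8.20e-08). EXO1, the exonuclease of long-range resection (chromosome 1, 241847967 to 241895148), stood at 137, 149 and 138 CPM and 28.99, 36.9 and 43.2 CPM, a change of -1.96 ± 0.13 (SE, adjusted p by edgeR = 3.26e-07). RBBP8, also known as CtIP and needed to start resection, stood at 227, 209 and 199.9 CPM and 112, 112 and 119 CPM, a change of -0.89 ± 0.08 (SE, adjusted p by edgeR = 3.50e-06). In all 3 genes every ML141 library was well under every DMSO library. RMI1 and RMI2, which hold BLM in the complex that takes junctions apart, fell by 1.06 and 0.56.

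MRE11A, RAD50 and NBN form the MRN complex, which binds broken ends and starts trimming them. The nuclease gene fell and the other two did not pass the test. MRE11A, the nuclease, had 100.5, 90.7 and 95.1 CPM with DMSO and 71.8, 65.5 and 66.7 CPM with ML141, a log2 change of -0.49 ± 0.09 (SE, adjusted p by edgeR = 5.48e-04), or -0.32 with library totals. RAD50, the coiled-coil tether, had 201, 201 and 169 CPM and 256, 211 and 207 CPM, a difference of 0.24 ± 0.10 (SE, adjusted p by edgeR = 0.0668). Its lowest ML141 library was above its highest DMSO library, but the difference did not pass the test. RAD50 passed upward with upper-quartile factors (edgeR adjusted p = 0.00831), with library totals (edgeR adjusted p = 0.00288), with no low-count filter (edgeR adjusted p = 0.0257), without ML141 replicate 2 (edgeR adjusted p = 0.0421) and with the replicate number added to the fit as a block, below the replicate block (edgeR adjusted p = 0.0118), which made it the 1 higher gene of its list. Its difference was 0.13 without ML141 replicate 1 (edgeR adjusted p = 0.181) and 0.16 without DMSO replicate 3 (edgeR adjusted p = 0.274), and it did not pass there. An overlapping gene on the same strand, AC116366.3, shares 90.6% of its exon bases. NBN, the adaptor that recruits ATM, had 263, 250.2 and 227 CPM and 319, 240.0 and 253 CPM, a difference of 0.13 ± 0.11 (SE, adjusted p by edgeR = 0.316) with overlapping groups. Without ML141 replicate 1, where it was highest, its difference was -0.0035.

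The 4 genes of damage checkpoint kinases and that of the ATR partner ATRIP all changed, with 4 lower, 1 higher and a median log2 change of -0.79. CHEK1, the kinase that ATR activates at stalled forks (chromosome 11, 125625136 to 125676255), stood at 215, 207 and 191 CPM with DMSO and at 77.1, 83.0 and 82.2 CPM with ML141, a log2 change of -1.34 ± 0.08 (SE, adjusted p by edgeR = 2.50e-07). CHEK2, the kinase downstream of ATM, stood at 64.0, 81.4 and 68.2 CPM and 27.7, 25.6 and 29.6 CPM, a change of -1.37 ± 0.12 (SE, adjusted p by edgeR = 2.08e-06). They were 2.53-fold and 2.58-fold lower, and no ML141 library reached a DMSO library. CHEK2 has near-identical pseudogene copies, so its counts depend on how such reads were placed.

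ATM and ATR moved in opposite directions. ATM (chromosome 11, 108222484 to 108369102) stood at 81.2, 79.9 and 83.0 CPM with DMSO and at 123, 109 and 102 CPM with ML141, a rise of 0.45 ± 0.09 (SE, adjusted p by edgeR = 0.00130), or 1.37-fold. The DMSO values were within 3.11 CPM of each other, and each ML141 value was above them. Its call and direction held under every alternative run. ATR had 148, 142.3 and 143 CPM and 109.7, 93.0 and 84.4 CPM, a log2 change of -0.59 ± 0.10 (SE, adjusted p by edgeR = 3.56e-04), and was lower in every ML141 library. ATRIP, the partner that brings ATR to single-stranded DNA, fell by 0.79, with 15.2, 15.1 and 15.9 CPM and 6.67, 10.2 and 9.71 CPM. Of its exon bases 29.6% also belong to TREX1 on the same strand.

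**Figure D3:**
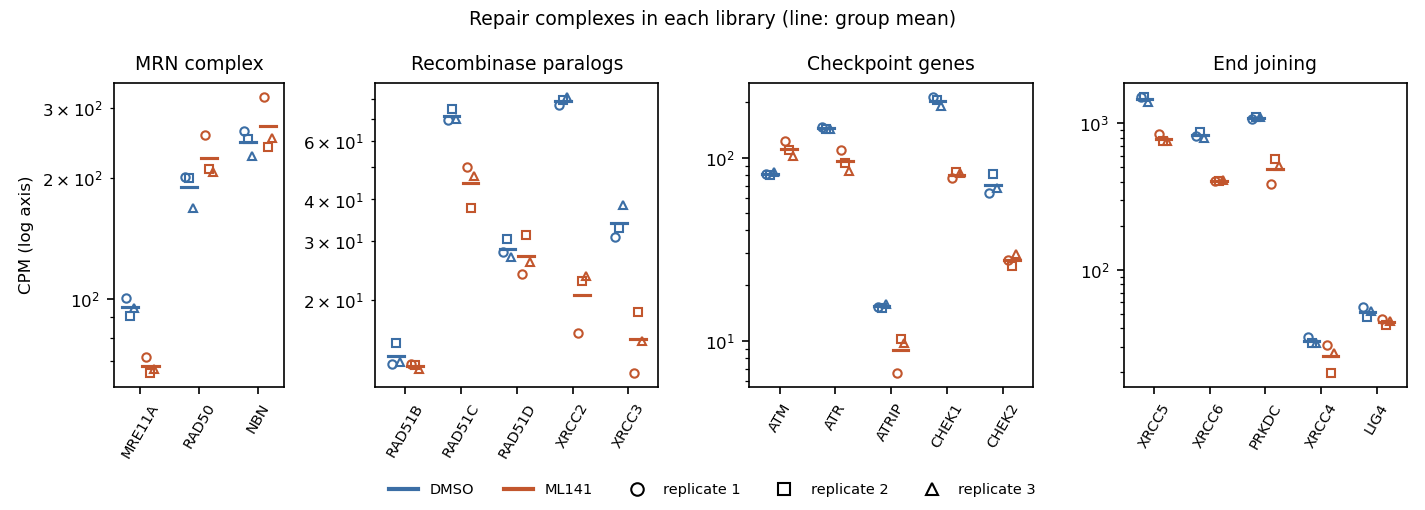
CPM in each library on log axes (y) for the MRN complex, the recombinase paralogs, the checkpoint genes and the end joining genes (x). Symbols are replicates, blue for DMSO and orange for ML141, and lines are group means. RAD50 and ATM lie higher with ML141 in every library, against the lower values of MRE11A and of the other checkpoint genes.

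Mismatch repair had the smallest median fall of the 7 pathways, a log2 change of -0.45, with 3 of 4 genes lower, none higher and none down by more than 2-fold. MSH6, which recognizes single mispaired bases (chromosome 2, 47695530 to 47810101), stood at 718, 646 and 626 CPM with DMSO and at 442, 423 and 407 CPM with ML141, a change of -0.65 ± 0.08 (SE, adjusted p by edgeR = 4.15e-05). MSH3, which recognizes larger loops, stood at 42.9, 47.8 and 39.3 CPM and 29.8, 29.1 and 31.5 CPM, a change of -0.52 ± 0.11 (SE, adjusted p by edgeR = 0.00151). The groups did not overlap in either gene. Of the exon bases of MSH6 21.0% overlap FBXO11 on the opposite strand.

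Of the mutL partners PMS1 fell and PMS2 did not pass the test. PMS1 had 91.1, 82.1 and 70.4 CPM with DMSO and 73.4, 60.7 and 54.6 CPM with ML141, a log2 change of -0.37 ± 0.13 (SE, adjusted p by edgeR = 0.0268) although the groups overlapped. Its call was lost with upper-quartile factors (edgeR adjusted p = 0.0697), with library totals (edgeR adjusted p = 0.173) and without any 1 of DMSO replicate 1 (edgeR adjusted p = 0.117), DMSO replicate 2 (edgeR adjusted p = 0.0820), ML141 replicate 2 (edgeR adjusted p = 0.0570) or ML141 replicate 3 (edgeR adjusted p = 0.120). It was lost too without replicate 2 (edgeR adjusted p = 0.155) or replicate 3 (edgeR adjusted p = 0.0818) of both groups. PMS2, the endonuclease subunit that nicks the strand to be removed, had 35.5, 33.0 and 32.7 CPM and 35.8, 37.7 and 39.1 CPM, a difference of 0.16 ± 0.10 (SE, adjusted p by edgeR = 0.204). It was higher in every ML141 library without passing the test, and its groups were only 0.32 CPM apart. PMS2 passed upward with upper-quartile factors (edgeR adjusted p = 0.0463) and library totals (edgeR adjusted p = 0.0144). PMS2 has near-identical pseudogene copies, which makes its counts uncertain.

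In base excision and single-strand break repair 4 of 6 genes fell, none rose and the median log2 fold change was -0.53. UNG, the glycosylase that removes uracil from DNA (chromosome 12, 109097574 to 109110992), had 169, 136 and 148 CPM with DMSO and 25.6, 50.7 and 38.3 CPM with ML141, a change of -1.98 ± 0.19 (SE, adjusted p by edgeR = 5.00e-06). Its ML141 replicate 1 was the lowest and replicate 2 the highest, and both were far under DMSO. PARP1, the sensor of nicked DNA (chromosome 1, 226360691 to 226408079), had 1029.7, 1020.4 and 972 CPM and 496, 616 and 589 CPM, a change of -0.83 ± 0.09 (SE, adjusted p by edgeR = 1.51e-05). PARP2, its relative, fell by 0.90.

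Among the members APEX1, XRCC1 and LIG3, which act after the glycosylase, 1 of 3 fell. APEX1, the endonuclease that cuts at the empty site, fell by 0.24 (edgeR adjusted p = 0.0174), a call that was lost with upper-quartile factors (edgeR adjusted p = 0.117) and library totals (edgeR adjusted p = 0.434). It was also lost without DMSO replicate 1 (edgeR adjusted p = 0.0669), DMSO replicate 2 (edgeR adjusted p = 0.0562) or ML141 replicate 3 (edgeR adjusted p = 0.0735), and without replicate 2 (edgeR adjusted p = 0.0552) or replicate 3 (edgeR adjusted p = 0.144) of both groups. XRCC1, the scaffold, had a difference of -0.09 ± 0.15 (SE, adjusted p by edgeR = 0.649), and LIG3, the ligase it holds, one of -0.18 ± 0.10 (SE, adjusted p by edgeR = 0.153). Neither passed, and the groups of both overlapped. LIG3 passed downward without ML141 replicate 2 (edgeR adjusted p = 0.0458). LIG3 shares 43.8% of its exon bases with RFFL on the opposite strand.

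Of the 5 end joining genes 3 fell, none rose and 2 did not pass, with a median log2 change of -0.91. XRCC5 and XRCC6 encode Ku80 and Ku70, the ring that grips a broken end. XRCC6 (chromosome 22, 41621119 to 41664048) stood at 818, 871 and 798 CPM with DMSO and at 401, 404 and 409 CPM with ML141, a change of -1.03 ± 0.07 (SE, adjusted p by edgeR = 6.99e-07). XRCC5 (chromosome 2, 216107464 to 216206303) stood at 1501, 1517 and 1403 CPM and 846, 753 and 759.9 CPM, a change of -0.91 ± 0.08 (SE, adjusted p by edgeR = 3.51e-06). The 3 ML141 values of XRCC6 lay within 7.83 CPM of each other, at 48.9% of the DMSO level by the fitted change. PRKDC, the catalytic subunit of the DNA-dependent protein kinase that Ku recruits, fell from 1089.7 ± 21.5 to 487 ± 94.6 CPM (mean ± SD, 3 libraries), a log2 change of -1.16 ± 0.12 (SE, adjusted p by edgeR = 1.02e-05).

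The genes of the ligation step did not pass the test without the replicate block, and both passed downward with it. XRCC4 had 34.7, 31.7 and 31.5 CPM and 30.8, 19.9 and 27.0 CPM, a difference of -0.34 ± 0.15 (SE, adjusted p by edgeR = 0.0753). LIG4, the ligase that it stabilizes, had 55.8, 47.8 and 52.3 CPM and 46.2, 41.9 and 45.2 CPM, a difference of -0.22 ± 0.10 (SE, adjusted p by edgeR = 0.0770). Every ML141 library was below every DMSO library in both genes. With the block the adjusted p by edgeR was 0.0176 for XRCC4 and 0.0423 for LIG4, which made all 5 end joining genes lower. Without ML141 replicate 1 both passed as well (edgeR adjusted p = 0.00603 and edgeR adjusted p = 0.0477), and without replicate 1 of both groups XRCC4 did (edgeR adjusted p = 0.0107). The difference of XRCC4 shrank to -0.17 without ML141 replicate 2 (edgeR adjusted p = 0.220) and to -0.19 without replicate 2 of both groups (edgeR adjusted p = 0.301). With library totals the differences of XRCC4 and LIG4 were -0.17 and -0.05.

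Ratios of partner genes within a library do not depend on how libraries are scaled. The 22 pairs were set from known complexes and pathway steps. In 16 of them the ML141 and DMSO libraries did not overlap, with 10 ratios lower and 6 higher. Of single genes 61.2% did not overlap by CPM, and the share over ratios of other gene pairs was not computed. With 3 libraries against 3 the exact 2-sided permutation test cannot go below p = 0.1, which is the value of all 16, and adjusted over the pairs it was 0.138. The log2 ratio of ATR to ATM was 0.86, 0.83 and 0.78 in the DMSO libraries and -0.17, -0.23 and -0.27 in the ML141 libraries, a difference of -1.05, with no overlap between the groups. The ratio of CHEK1 to CHEK2 differed by 0.02, with overlapping groups, while that of CHEK1 to ATR differed by -0.74. Relative to MRE11A, NBN was higher by 0.61 and RAD50 by 0.73.

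Further ratios are given as differences only, since no pair passed the test. RAD51D relative to XRCC2 had the largest difference, 1.88, from -1.47, -1.38 and -1.60 to 0.59, 0.46 and 0.14, and RAD51B relative to RAD51C differed by 0.58. UNG relative to APEX1 differed by -1.79, EXO1 relative to RBBP8 by -1.08, FANCA relative to FANCC by -1.02, and RAD54L relative to RAD54B by -0.80. PMS1 relative to PMS2 differed by -0.53, BRCA2 relative to PALB2 by -0.50 and RMI2 relative to RMI1 by 0.50. Among the 16 pairs without overlap the smallest differences were -0.30 for BRCA1 and BARD1, -0.29 for FANCD2 and FANCI and 0.12 for XRCC5 and XRCC6. The groups overlapped for ATR and ATRIP (0.22), MSH6 and MSH3 (-0.12), LIG3 and XRCC1 (-0.10), PARP1 and PARP2 (0.07) and XRCC4 and LIG4 (-0.13).

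**Figure D4:**
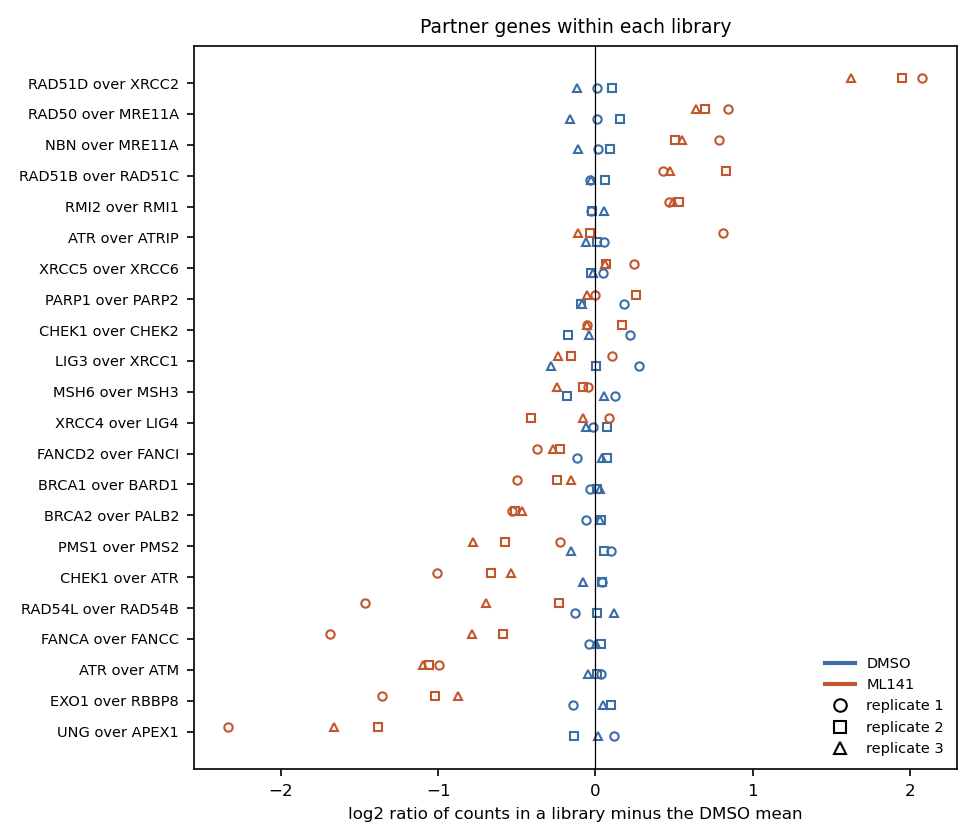
Log2 ratio of the counts of 2 partner genes in each library, minus the mean of the DMSO libraries (x axis), for 22 pairs (y axis). Symbols are replicates, blue for DMSO and orange for ML141. RAD51D over XRCC2 lies farthest right, with a mean difference of 1.88, and UNG over APEX1 farthest left, at -1.79.

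Levels can be compared between genes only per length, here as CPM per kilobase of annotated exon. With DMSO the highest members were XRCC5 at 392 ± 16.4 (mean ± SD, 3 libraries), XRCC6 at 281 ± 12.8, PARP1 at 237 ± 7.29 and APEX1 at 219.8 ± 7.73 CPM per kilobase, against a median of 22.7 over the members. The lowest were RAD51D at 2.78 ± 0.187, ATRIP at 3.01 ± 0.086, RAD51B at 3.19 ± 0.259 and ATM at 4.45 ± 0.085. XRCC5, XRCC6, PARP1 and APEX1, whose products hold, sense or cut damaged DNA, held ranks 1 to 4 with ML141 too. UNG went from 63.3 ± 7.03 to 16.0 ± 5.26 CPM per kilobase, from rank 7 to rank 17. EXO1 went from rank 15 to 31 and RAD54L from 18 to 36, while NBN went from rank 12 to 5 and RAD50 from 25 to 10. ATM, at 6.09 ± 0.592 CPM per kilobase with ML141, moved from rank 48 to 40.

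**Figure D5:**
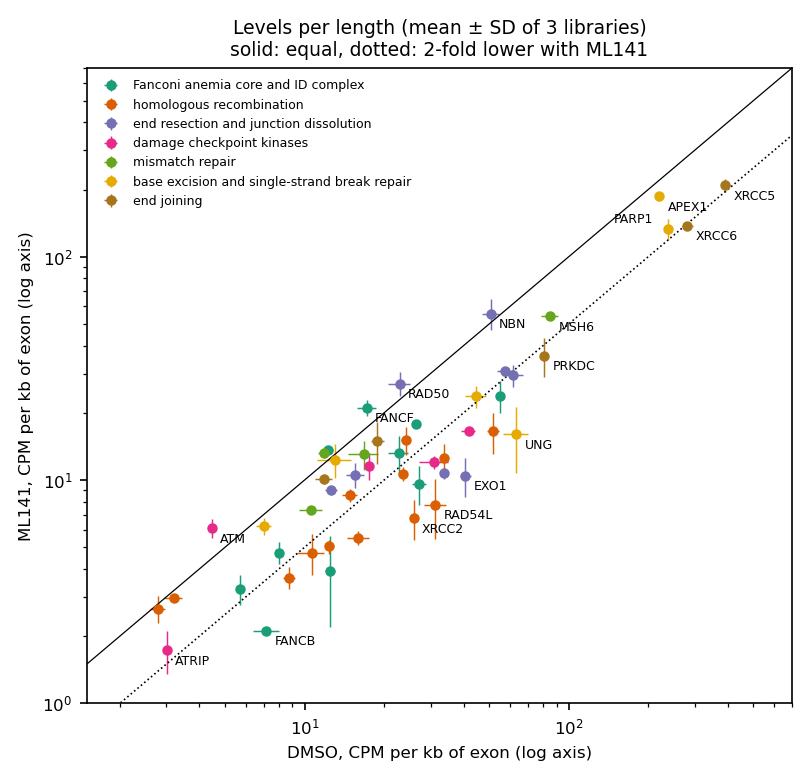
Level of each repair gene in CPM per kilobase of exon with DMSO (x axis) and with ML141 (y axis), both on log axes, as means of 3 libraries with SD bars, colored by pathway. The solid line marks equal levels and the dotted line a 2-fold lower level with ML141. NBN, RAD50, FANCF and ATM lie above the solid line, and UNG, EXO1, RAD54L, XRCC2 and FANCB lie under the dotted one.

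Other genes of these and further repair pathways were taken from lists that exclude the 51. Of 126 such genes tested 62 fell, 20 rose and 44 did not pass, with a median log2 change of -0.26. Over all genes tested 27.7% fell and 26.7% rose, shares that stand beside the counts of each list below. Those of homologous recombination had 18 of 23 lower, 2 higher and a median of -0.65. DNA2, a resection nuclease, fell by 1.61 and FIGNL1, which removes the recombinase from DNA, by 1.47. RECQL5, a helicase known to restrain recombination, rose by 0.52 ± 0.13 (SE, adjusted p by edgeR = 0.00454), and RAD52, a strand-annealing protein, rose by 0.36 ± 0.11 (SE, adjusted p by edgeR = 0.0152). The call of RAD52 was lost without DMSO replicate 3 (edgeR adjusted p = 0.0600) and without replicate 2 (edgeR adjusted p = 0.0630) or replicate 3 (edgeR adjusted p = 0.151) of both groups.

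Among other Fanconi and crosslink genes 8 of 16 fell and 1 rose, or 2 with the replicate block, which added ERCC4, a nuclease subunit named here after its values were seen. UBE2T, the ubiquitin-conjugating enzyme that works with FANCL, fell from 79.7 ± 4.92 to 23.6 ± 7.53 CPM (mean ± SD, 3 libraries), a log2 change of -1.76 ± 0.17 (SE, adjusted p by edgeR = 6.71e-06). DCLRE1B, a nuclease of crosslink repair and telomeres, fell by 1.17. WDR48, which activates the enzyme that removes ubiquitin from FANCD2, rose by 0.58 ± 0.12 (SE, adjusted p by edgeR = 0.00123). Of 29 genes of break signalling and pathway choice 16 fell and 2 rose. CDC25A, the phosphatase that CHEK1 turns off, fell by 2.30, and TIPIN, part of the fork protection complex, fell by 1.73. BRE, a subunit of the BRCA1-A complex, rose by 0.58 ± 0.10 (SE, adjusted p by edgeR = 6.18e-04), and RAD17, the loader of the checkpoint clamp, rose by 0.76 ± 0.21 (SE, adjusted p by edgeR = 0.00944) at a low level of 2.57 ± 0.157 to 4.33 ± 0.147 CPM (mean ± SD, 3 libraries). The call of RAD17 was lost without replicate 2 (edgeR adjusted p = 0.0637) or replicate 3 (edgeR adjusted p = 0.102) of both groups.

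Of 9 other end joining genes tested, 2 fell (22.2%, beside 27.7% of all genes) and 3 rose (beside 26.7%). Their median log2 change was 0.27. DCLRE1C, the Artemis nuclease that opens hairpins in antigen receptor recombination, rose by 0.36 ± 0.09 (SE, adjusted p by edgeR = 0.00672), and APLF, a scaffold that binds Ku, rose by 0.83 ± 0.17 (SE, adjusted p by edgeR = 0.00126). TDP1, which clears blocked ends, fell by 0.51, and C9orf142, a factor that stabilizes end joining complexes, fell by 0.62 with overlapping groups. The call of C9orf142 was lost with upper-quartile factors (edgeR adjusted p = 0.0994) and library totals (edgeR adjusted p = 0.137), which left 1 of the 9 lower. It was also lost without DMSO replicate 2 (edgeR adjusted p = 0.0877), DMSO replicate 3 (edgeR adjusted p = 0.162), ML141 replicate 1 (edgeR adjusted p = 0.0671), ML141 replicate 3 (edgeR adjusted p = 0.141) or replicate 3 of both groups (edgeR adjusted p = 0.377, a change of -0.36). Its change was -0.94 both without ML141 replicate 2 and without replicate 2 of both groups. The call of DCLRE1C was lost without replicate 3 of both groups (edgeR adjusted p = 0.0852), and the change of TDP1 was -0.34 with library totals.

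In base excision repair 8 of 16 other genes fell and 6 rose. FEN1, the flap nuclease that also trims Okazaki fragments, fell from 246 ± 5.22 to 47.4 ± 11.3 CPM (mean ± SD, 3 libraries), a log2 change of -2.37 ± 0.14 (SE, adjusted p by edgeR = 2.20e-07), and LIG1, the replicative ligase, fell by 1.57. PARP3, a relative of PARP1 that acts at breaks, rose by 0.81 ± 0.15 (SE, adjusted p by edgeR = 6.77e-04), and SMUG1, a second uracil glycosylase, rose by 0.56 ± 0.14 (SE, adjusted p by edgeR = 0.00587). UNG and SMUG1, which remove the same base, therefore moved in opposite directions.

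Nucleotide excision repair cuts out bulky lesions such as those of ultraviolet light. It had 4 of 19 genes lower (21.1%, beside 27.7% of all genes) and 3 higher (beside 26.7%). Its median log2 change was 0.03. ERCC6, the Cockayne syndrome factor of transcription-coupled repair, rose by 1.00 ± 0.13 (SE, adjusted p by edgeR = 6.84e-05), and GTF2H5, a small subunit of TFIIH, rose by 0.61 ± 0.12 (SE, adjusted p by edgeR = 0.00140). CETN2, which is in the XPC damage sensor and also in centrioles, fell by 0.98, and DDB1, an adaptor of ubiquitin ligases, fell by 0.55. With upper-quartile factors 6 genes of this pathway were higher, and with library totals 8. Of 14 genes of damage bypass and direct reversal 6 fell and 3 rose. RAD18, the ligase that marks PCNA at stalled forks, fell by 1.06, and REV1, a bypass polymerase, fell by 0.58. ALKBH3, a demethylase that reverses alkylation, rose by 0.77 ± 0.10 (SE, adjusted p by edgeR = 4.93e-05), and POLI, another bypass polymerase, rose by 0.74 ± 0.14 (SE, adjusted p by edgeR = 6.68e-04).

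The direction of small changes depended on the scaling of libraries. Of all changed genes 49.1% were higher with TMM factors, 59.5% with upper-quartile factors and 66.1% with library totals, where the all-gene median moved from 0.02 to 0.12 and 0.19. Of the changed repair genes 2 of 41 were higher with TMM factors, against 5 of 42 and 6 of 43, and the median of the members was -0.81, -0.71 and -0.64. FANCE, PMS2 and RAD50 were the members added with upper-quartile factors, and NBN joined them with library totals.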

How the data were processed

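RNA from 6 REH libraries was analysed. Per the labels' protocols, an RNeasy Plus kit was used for extraction and TruSeq RNA v2 for the libraries, which leaves strands unmarked. The submitters' processing notes name hg38 as the build and, among others, bcl2fastq 2.19, Bowtie2 and featureCounts. How these were set is not given in the sources used here, and Bowtie2 does not split reads across introns. The deposited table holds raw counts per gene symbol, and 16703 of its 26485 entries had a count. It also holds scores, which are the authors' scaled and rounded counts and were not used. The log2 fold changes and p-values in it are the authors' own comparison, named where used.

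The counts were tested with edgeR 4.0.16 (R 4.3.3, glmQLFit and glmQLFTest) on all 6 libraries, with TMM factors, filterByExpr at its defaults (minimum count 10, minimum total 15) and group as the only term, 2-sided. P-values were adjusted by Benjamini-Hochberg over the 11454 genes tested, with a threshold of 0.05. The standard error is the size of the log2 fold change over the square root of F. Partner ratios used a prior count of 0.5 and an exact permutation test, and per-library list means an offset of 0.25 CPM. Members and lists were chosen with earlier results of these data known, so the counts are descriptions. Values in every library were given for the members with the smallest p in each pathway (3 in lists of 8 or more, 2 in others), for those that rose and for partners that differed from their list, and some further values were chosen after they were seen. From each other list up to 2 changed genes in each direction with the smallest p were named. The test was also run on simulated counts drawn from its own fitted dispersions, with independent genes and changes balanced up and down. That run could not test the scaling of libraries or the spread assumed by the fit. Gene positions and exon overlaps are from GENCODE release 29 (GRCh38, 1-based). Between libraries of a group the chi-square per degree of freedom was 2.90 to 18.4, so none was counted as a duplicate. Some genes are not reported here.

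Library names in the labels share a tag between 1 DMSO and 1 ML141 library of the same replicate number, and the series text speaks of 3 experiments, so a number was read as marking an experiment. The labels do not say so outright, and the reading was made with both fits known. Deviations from the group means correlated at 0.374, 0.0847 and 0.178 between same-numbered libraries, while DMSO replicate 3 correlated more with ML141 replicate 2 (0.291). The fit without the number stayed the main one, and values with the number as a block (the replicate block) stand beside the calls it changed.

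As alternatives, libraries were scaled by upper quartiles, by totals or by the size factors of DESeq2 1.42.0. The low-count filter was dropped or made stricter, the Wald test of DESeq2 and limma-voom (3.58.1) were run, the replicate number was added as a block, and each library or replicate number was left out.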

Additional observations from a re-analysis of the deposited data

How the results depend on the processing

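The number of repair genes that fell stayed between 37 and 41 under all 17 alternatives run, and the number that rose between 1 and 6. The cause was not tested where values changed. Scaling by upper-quartile factors and by library totals gave 5 and 6 higher repair genes. By pathway, higher genes then numbered 2 and 2 for Fanconi, 1 and 2 for end resection, 1 and 1 for mismatch repair, 2 and 3 for other Fanconi genes, and 6 and 8 for nucleotide excision repair. Library totals also gave 4 higher genes of other homologous recombination and 5 of break signalling, and 1 other end joining gene was lower under either scaling. Small differences changed sign under upper-quartile factors in XRCC1 (0.020) and RAD51D (0.041), and under library totals in XRCC1 (0.090), RAD51B (0.071) and RAD51D (0.11). No low-count filter gave 1 higher gene of end resection and 2 other Fanconi genes. Searching only 150 bases before the start left 17 members with an E2F word (37.8%, against 14.9% of tested genes with a window). It left 2 with a cell cycle homology word (4.44%, against 6.94%).

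With the replicate block 41 repair genes fell and 3 rose, with 5 end joining genes lower, 1 end resection gene and 2 other Fanconi genes higher, and over all genes 3538 fell and 3441 rose. Among the repair genes the block changed the calls of RAD50, XRCC4 and LIG4, which then passed, and no other.

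With 1 library or replicate number left out, 1920 (without replicate 3) to 3195 of all genes were higher. Higher repair genes numbered 1 to 3, Fanconi 0 to 1, end resection 0 to 1, other Fanconi 1 to 2, other homologous recombination 1 to 2, break signalling 1 to 2, other end joining 1 to 4, other base excision 3 to 7 and nucleotide excision 2 to 5. Lower genes numbered 3 to 5 for end joining and 1 to 3 for other end joining. Signs changed in NBN (-0.0035 to 0.23), XRCC1 (-0.20 to 0.042), RAD51D (-0.18 to 0.014) and in the log2 ratios CHEK1 over CHEK2 (-0.067 to 0.13), ATR over ATRIP (-0.072 to 0.39), LIG3 over XRCC1 (-0.24 to 0.043), PARP1 over PARP2 (-0.029 to 0.16) and XRCC4 over LIG4 (-0.24 to 0.0035). No member that rose or fell changed sign in any alternative run.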
